A study of Mus musculus with 7 samples.

Results

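The transcripts of 9 genes that build the junctions between Sertoli cells were measured in testes enriched for preleptotene spermatocytes, the germ cells that have to pass the blood-testis barrier as they enter meiosis. The genes are *Cldn11*, *Cldn3*, *Cldn5*, *Ocln*, *Jam2*, *F11r*, *Tjp1*, *Gja1* and *Cdh2*. They were listed by name as tight, gap and adherens junction genes of the barrier. The rule used no measured value, although earlier results of these data were known when the genes were chosen. All 9 were found among the 21928 genes of the tables. All 9 also passed the minimum of 1 TPM, a read count scaled to transcript length and library, in at least 3 of 7 libraries, which left 13630 genes to test.

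The comparison was between 4 wild-type and 3 *Meioc*-null male pups, both of strain C57BL/6N, with 1 bulk RNA-seq library per pup made from 1.5 testes. *Meioc*-null animals carried the null allele *Meioc* tm1.1Dpc, a germline allele that had been backcrossed to C57BL/6N. Pups of both genotypes received the same synchronizing treatment, which began with WIN 18,446, a blocker of the synthesis of retinoic acid, given each day from P2 to P8 at 0.1 mg/g body weight. A dose of 0.0125 mg/g retinoic acid followed on P9, and the testes were taken 6.75 days after it. Whole testes hold Sertoli cells, germ cells and interstitial cells together, so for every gene below fewer cells of a type and less RNA per cell cannot be told apart.

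The blood-testis barrier is formed by neighboring Sertoli cells near the base of the seminiferous tubule. Claudins, occludin and the junctional adhesion molecules span the membrane and seal the space between the cells, zonula occludens proteins tie these strands to actin, connexin channels join the cytoplasm of the cells, and N-cadherin holds the membranes together. Preleptotene spermatocytes lie outside the barrier and move through it while new junctions are laid down behind them and old ones are dissolved above them. In an established barrier the junctions are thus rebuilt in each cycle while the barrier stays closed. The state of the barrier in these pups was not measured.

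Sequences immediately upstream of 3 of the genes are given here because these genes had the different outcomes described later: *Gja1*, the member that passed the test, *F11r*, the member whose adjusted p came next, and *Cldn11*, whose CPM differed between genotypes by less than its error. They are the 250 bases before the RefSeq start site on GRCm38.p6, 5′ to 3′ on the gene's own strand, which is the plus strand for all 3. Capitals mark the AP-1 motif (TGAGTCA or its reverse complement TGACTCA) and the CCAAT box (CCAAT or its reverse complement ATTGG), and no marked runs overlap.
*Gja1* chr10:56377050-56377299: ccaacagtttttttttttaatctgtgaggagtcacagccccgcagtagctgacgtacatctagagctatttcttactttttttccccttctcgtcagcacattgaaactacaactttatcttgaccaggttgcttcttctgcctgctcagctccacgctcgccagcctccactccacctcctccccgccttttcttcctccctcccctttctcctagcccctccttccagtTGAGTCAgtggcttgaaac
*F11r* chr1:171437311-171437560: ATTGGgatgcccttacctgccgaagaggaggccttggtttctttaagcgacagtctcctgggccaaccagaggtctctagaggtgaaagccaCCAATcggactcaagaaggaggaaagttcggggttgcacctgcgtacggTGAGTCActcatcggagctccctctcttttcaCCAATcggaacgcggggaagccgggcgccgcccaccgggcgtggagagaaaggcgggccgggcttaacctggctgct
*Cldn11* chr3:31149670-31149919: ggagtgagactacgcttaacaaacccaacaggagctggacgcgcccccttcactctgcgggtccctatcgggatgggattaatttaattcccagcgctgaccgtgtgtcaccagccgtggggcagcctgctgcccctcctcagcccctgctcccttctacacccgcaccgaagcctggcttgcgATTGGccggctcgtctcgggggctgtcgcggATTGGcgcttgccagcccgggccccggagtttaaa

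Of the 9 genes, 7 had an entry in the RefSeq promoter table, and *Jam2* and *Cdh2* had none. The AP-1 motif stood in the windows of *Gja1*, 19 bases before the start, and of *F11r*, 109 bases before it. Among all 32851 windows of this length in the table, 4.46% held that motif on either strand. The CCAAT box was in windows of 4 of the 7 genes (*Cldn11*, *F11r*, *Ocln* and *Cldn5*) and in 33.8% of all windows. *Cldn11* had it 66 and 35 bases before its start, *F11r* had 3 of them and *Gja1* had none. The GC box (GGGCGG or CCGCCC), which is not marked above, was in windows of 5 of the 7 genes (*F11r*, *Cldn3*, *Tjp1*, *Ocln* and *Cldn5*) and in 32.7% of all windows. The TATA box (TATAAA or TTTATA) was in 12.4% of all windows and in none of the 7 genes' windows. The motifs were picked with the sequences in view, and a match describes letters only. The window of *Gja1* lies before the first exon of its transcript *Gja1-201*. It does not cover the bases before the start of *Gja1-206*, a transcript that begins 1758 bases further downstream.

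Before the comparison, the labels and the tissue were checked. *Meioc* was at 466, 658, 662 and 718 CPM (read counts scaled to normalized library size) in the wild type and at 399, 299 and 412 CPM in the *Meioc*-null libraries, which did not overlap, so counts on transcripts of the gene remained under the null allele. Libraries held between 12537852 and 20552702 estimated counts. Sertoli markers, the genes of the cells that form the barrier, summed to between 1882 and 2023 CPM in the wild type and between 1779 and 2023 CPM in *Meioc*-null testes, and 0 of the 10 were called by edgeR at an adjusted p under 0.05. At an unadjusted p under 0.05 by edgeR, 2 of the 10 were higher in the wild type and 1 was lower, DESeq2 called 2 higher, and limma on log2(TPM + 1) called 2 lower. Germ cell markers summed to between 2334 and 2747 CPM in the wild type and to between 1564 and 1757 CPM in *Meioc*-null testes, ranges that did not overlap, and 5 of 8 (*Dazl*, *Mael*, *Sycp3*, *Rnf17* and *Tex101*) were higher in the wild type by edgeR. Of these 5 calls, those of *Dazl* and *Tex101* held in all 7 fits without 1 library, those of *Sycp3* and *Rnf17* were lost without *Meioc*-null replicate 3, and that of *Mael* was lost without that library or wild-type replicate 2 or 3. DESeq2 also called 5 of the 8 higher, limma on log2(TPM + 1) called 4 higher and 1 lower, and edgeR with a replicate block called 1 higher. Without adjustment, edgeR had 6 higher and 1 lower at p under 0.05. The lower one was *Tdrd1*, with means of 131 CPM in the wild type and 155 CPM in *Meioc*-null testes. Its libraries overlapped, and its edgeR adjusted p was 0.148. Any part of the difference in germ cell markers in the results below was not tested. No marker of any list was at 0 in a library.

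Among the 9 junction genes, the test called only *Gja1*, the connexin 43 gene, which was lower in the wild type. Differences are given as the log2 fold change (wild type/*Meioc*-null), so a negative value means a higher level in *Meioc*-null testes, and a gene is called when its p from the quasi-likelihood test of edgeR, adjusted over all tested genes by Benjamini-Hochberg, is under 0.05. This 1 of 9 stood beside a background of 11.1% of all tested genes called in either direction and 3.33% called lower in the wild type. The fold changes of 6 of the 9 were below 0, and those of 50.9% of all genes were. The median over the 9 was -0.26, and over all genes tested it was -0.0065. At an unadjusted p under 0.05 by edgeR, 5 of the 9 were lower in the wild type and 12.9% of all genes were.

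**Figure D1:**
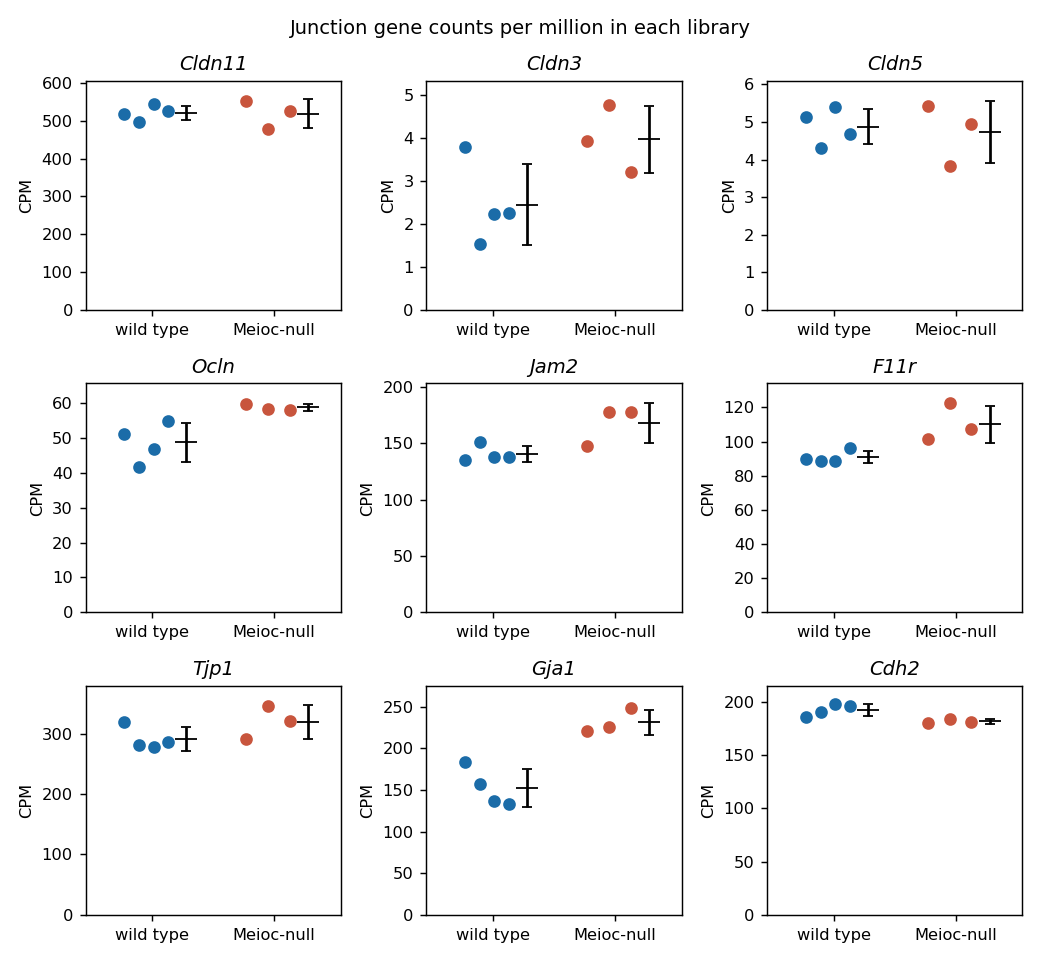
Normalized CPM of the 9 junction genes in each library, with 4 wild-type libraries in blue and 3 *Meioc*-null libraries in red. Each axis starts at 0, and the bars beside the points give the mean and SD of each group. Points of the groups do not overlap for *Gja1*, *F11r* and *Ocln*, which are higher in *Meioc*-null testes, and for *Cdh2*, which is higher in the wild type.

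Claudins form the sealing strands. *Cldn11* (ENSMUSG00000037625, chr3:31149920-31164324, plus strand), the main claudin of Sertoli cells, without which the barrier does not form in mice, was at 519, 498, 543 and 526 CPM in the wild type and at 552, 477 and 525 CPM in *Meioc*-null testes. The *Meioc*-null libraries held both the highest and the lowest of these values, so the groups overlapped completely. The log2 fold change was 0.0085 ± 0.074 (SE, n = 4 and 3), with a 95% interval from -0.16 to 0.17 and an edgeR adjusted p of 0.951. On the TPM scale, where the median of all genes was itself below 0, limma gave -0.22 for this gene.

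The other claudins were expressed far lower. *Cldn3* (chr5:134986214-134987472, plus strand), a claudin known at newly formed Sertoli cell junctions, was at 3.78, 1.53, 2.22 and 2.26 CPM in the wild type and at 3.94, 4.77 and 3.20 CPM in *Meioc*-null testes. Wild-type replicate 1 lay among the *Meioc*-null libraries, and the other wild-type libraries lay below all of them. These values rested on 22 to 74 counts per library, the fewest of the 9 genes, and the log2 fold change of -0.70 ± 0.29 (SE) had an edgeR adjusted p of 0.139. Without wild-type replicate 1 it was -0.96 with an edgeR adjusted p of 0.0334, so that single library decided the call. *Cldn5* (chr16:18776847-18778262, plus strand), also a claudin of endothelial cells, was at 5.12, 4.32, 5.39 and 4.68 CPM in the wild type and at 5.43, 3.83 and 4.94 CPM in *Meioc*-null testes, with overlapping groups. Its log2 fold change was 0.036 ± 0.18 (SE) and its edgeR adjusted p was 0.912, with an interval from -0.36 to 0.44 that left room for moderate differences in both directions.

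*Ocln* (chr13:100496507-100552718, minus strand) encodes occludin, a tight junction protein with 4 passes through the membrane. It was at 51.1, 41.7, 46.8 and 54.9 CPM in the wild type and at 59.7, 58.2 and 58.0 CPM in *Meioc*-null testes. The *Meioc*-null libraries were close together and all above the wild-type libraries. The log2 fold change was -0.27 ± 0.098 (SE), with an interval from -0.49 to -0.051 and an edgeR adjusted p of 0.100, which did not pass.

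The junctional adhesion molecules are single-pass proteins of the tight junction strand. *F11r* (chr1:171437535-171464603, plus strand), which encodes JAM-A, was at 89.8, 88.7, 88.8 and 96.1 CPM in the wild type and at 101, 122 and 107 CPM in *Meioc*-null testes, again without overlap. Its log2 fold change was -0.28 ± 0.084 (SE), with an interval from -0.47 to -0.090 and an edgeR adjusted p of 0.0614. *Jam2* (chr16:84774123-84825928, plus strand), which encodes JAM-B, was at 136, 151, 138 and 138 CPM in the wild type and at 148, 178 and 178 CPM in *Meioc*-null testes. Here *Meioc*-null replicate 1 lay below wild-type replicate 2, so the groups overlapped by this pair. The log2 fold change was -0.26 ± 0.088 (SE) and the edgeR adjusted p was 0.0852. Without *Meioc*-null replicate 1, the edgeR adjusted p of *F11r* was 0.0378 and that of *Jam2* was 0.0291, so both calls turned on that library.

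*Tjp1* (chr7:65296165-65527781, minus strand) encodes ZO-1, the scaffold that ties claudins, occludin and JAM-A to actin. It was at 320, 281, 277 and 286 CPM in the wild type and at 291, 346 and 321 CPM in *Meioc*-null testes. The groups overlapped, with wild-type replicate 1 in the upper range, and the log2 fold change of -0.13 ± 0.086 (SE) had an edgeR adjusted p of 0.323. The value moved with the settings, to -0.071 without *Meioc*-null replicate 2, -0.054 with the trend with transcript length removed and -0.37 by limma on log2(TPM + 1), and it was not called in any of them.

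*Gja1* (chr10:56377330-56402513, plus strand) encodes connexin 43, the main gap junction protein of Sertoli cells, which couples Sertoli cells with one another and with germ cells. It was at 183, 157, 136 and 133 CPM in the wild type and at 221, 225 and 248 CPM in *Meioc*-null testes. Every *Meioc*-null library was above every wild-type library, and wild-type replicate 1 was nearest to them. The means were 152 ± 23.3 CPM (SD, n = 4) and 231 ± 14.95 CPM (SD, n = 3), a level 1.52-fold higher in *Meioc*-null testes, and the log2 fold change was -0.60 ± 0.12 (SE), with an interval from -0.86 to -0.35 and an edgeR adjusted p of 0.0174. In fits without 1 library, its fold change ranged from -0.71 to -0.55 on the log2 scale, and the call held in 4 of 7. It was lost without wild-type replicate 2 (edgeR adjusted p of 0.0514), without wild-type replicate 3 (0.0562) and without *Meioc*-null replicate 3 (0.0709). DESeq2 gave an adjusted p of 6.3e-05 for the same libraries.

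*Cdh2* (chr18:16588877-16809246, minus strand) encodes N-cadherin, the adherens junction protein between Sertoli cells and between Sertoli and germ cells. It was at 186, 190, 198 and 196 CPM in the wild type and at 180, 184 and 181 CPM in *Meioc*-null testes. Here the wild-type libraries were all higher, by a small margin. The log2 fold change was 0.084 ± 0.066 (SE), with an interval from -0.063 to 0.23 and an edgeR adjusted p of 0.416, and on the TPM scale its sign turned (-0.16 on log2(TPM + 1) by limma).

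The CPM of 3 genes did not overlap with *Meioc*-null testes higher, beside 10.8% of all genes, and that of 1 gene did not overlap with the wild type higher, beside 15.4% of all genes. In sum, the 9 genes gave between 1413 and 1493 CPM in the wild type and between 1562 and 1627 CPM in *Meioc*-null testes. The largest difference of means within this sum was that of *Gja1*, at 152 CPM in the wild type and 231 CPM in *Meioc*-null testes. *Cldn11*, the largest term, was at 521 and 518 CPM.

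**Figure D2:**
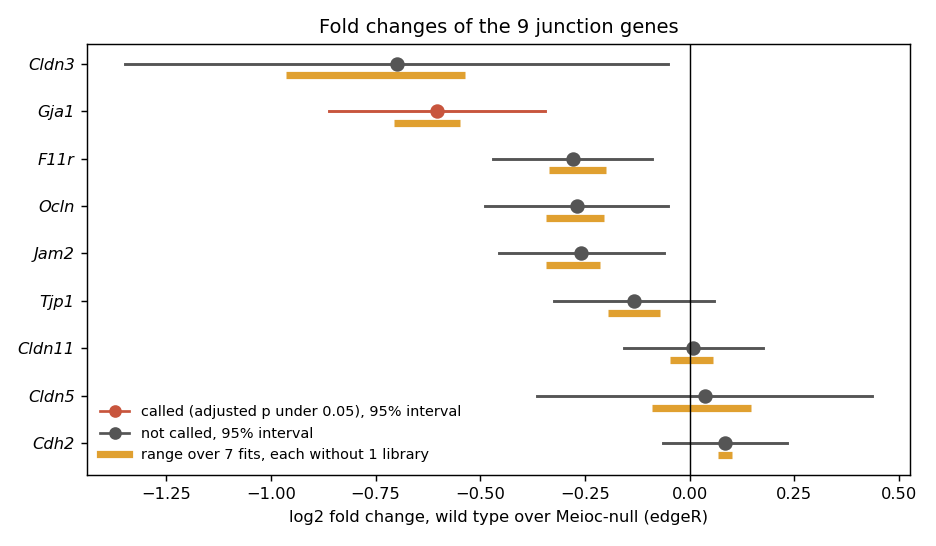
Log2 fold change (wild type/*Meioc*-null) of the 9 junction genes by edgeR on the horizontal axis, with 95% intervals, and below each the range over 7 fits that each left out 1 library. Only *Gja1*, in red, was called, at -0.60, while *Cldn11*, *Cldn5* and *Cdh2* lie on or next to 0.

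How many of these genes were called depended on the test and the scaling. DESeq2 on the same counts called 3 of the 9 (*Gja1*, *F11r* and *Jam2*), beside 6.42% of all genes called lower in the wild type. When counts were scaled by library size alone, edgeR called the same 3 genes, beside 6.6% of all genes. Limma on log2(TPM + 1) called 4 (*Gja1*, *F11r*, *Jam2* and *Ocln*), beside 15.3% of all genes called lower in the wild type. On that scale the median of all genes was itself at -0.23 and that of the 9 genes at -0.52.

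Levels between genes were compared per transcript length, in TPM. In the wild type, *Cldn11* was highest at 340 ± 22.7 TPM (SD, n = 4), which put its mean over the 7 libraries at the 97.8th percentile of tested genes. *Gja1* at 74.1 ± 15.9 TPM, *Tjp1* at 73.5 ± 9.56 TPM and *Cdh2* at 72.8 ± 2.86 TPM came next and were not separate from one another. *Jam2* at 55.9 ± 3.01 TPM was below *Cdh2* and above *F11r* in its range.

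*F11r* at 42.1 ± 3.16 TPM and *Ocln* at 33.8 ± 6.14 TPM overlapped in the wild type, although *F11r* was the higher of both in 7 of 7 libraries. *Cldn5* at 3.40 ± 0.465 TPM and *Cldn3* at 2.29 ± 1.04 TPM were last and overlapped too. In *Meioc*-null testes the order began with *Cldn11* at 397 ± 20.1 TPM and *Gja1* at 132 ± 9.11 TPM. *Gja1* was thus apart from *Tjp1* at 95.4 ± 14.9 TPM there, and *Jam2* at 82.3 ± 14.7 TPM and *Cdh2* at 81.4 ± 7.53 TPM overlapped. In TPM, 6 of the 9 genes (*Cldn11*, *Ocln*, *Jam2*, *F11r*, *Gja1* and *Cdh2*) did not overlap between genotypes with *Meioc*-null testes higher, beside 28.4% of all genes.

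**Figure D3:**
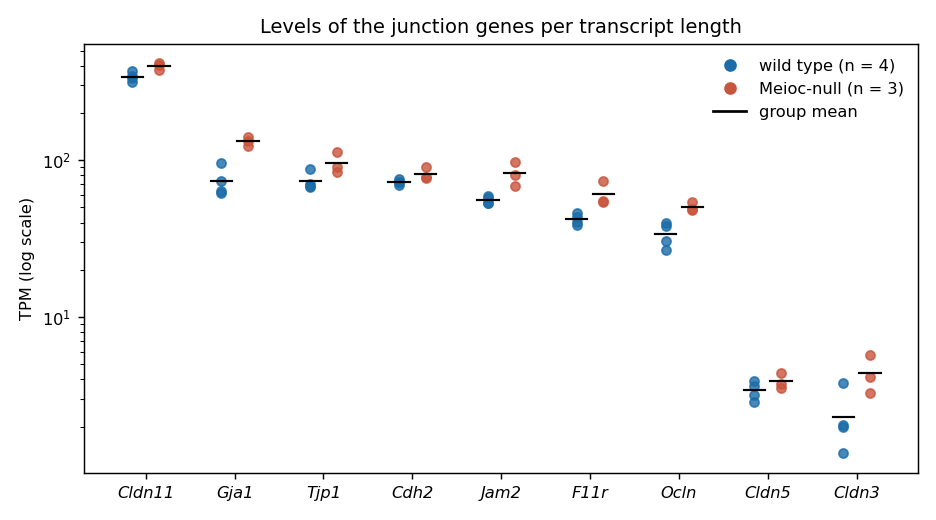
Level of the 9 junction genes in TPM on a log scale, ordered by the wild-type mean, with 4 wild-type libraries in blue, 3 *Meioc*-null libraries in red and a line at each group mean. *Cldn11* lies at 340 TPM in the wild type, and *Cldn5* and *Cldn3* lie under 5 TPM on average. The wild-type means of the other 6 lie between 33.8 and 74.1 TPM.

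The 9 genes were listed for the junctions between Sertoli cells, although bulk testes do not show which cells their reads came from. Each was also set against the Sertoli markers of its own library, as log2 CPM minus the mean log2 CPM of the 10 markers. That mean was 6.41 in the wild type and 6.29 in *Meioc*-null testes, with overlapping libraries (p = 0.229, two-sided exact permutation test). On this scale *Gja1* was lower in the wild type by a difference of -0.73, *Ocln* by -0.39 and *F11r* by -0.39, each without overlap and each at the smallest p that 4 against 3 libraries allow (p = 0.0571, two-sided exact permutation test; 0.171 with Benjamini-Hochberg adjustment over the 9). These 3 of 9 stood beside 13.8% of all genes that did not overlap with *Meioc*-null testes higher.

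The other 6 genes overlapped on the same scale. The difference was -0.10 for *Cldn11* (p = 0.286), -0.87 for *Cldn3* (p = 0.171), -0.25 for *Tjp1* (p = 0.114) and -0.37 for *Jam2* (p = 0.114, all by the exact permutation test). It was -0.060 for *Cldn5* (p = 0.686) and -0.030 for *Cdh2* (p = 0.629, by the same exact permutation test).

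*Cldn11*, a gene of Sertoli cells that did not differ in CPM beyond its error, was also taken as a reference, a choice made after the data were seen. *Gja1* in CPM was 35.3%, 31.5%, 25.1% and 25.2% of *Cldn11* in the wild type and 39.9%, 47.1% and 47.3% of it in *Meioc*-null testes. The share was larger in every *Meioc*-null library, with means of 29.3% ± 5.02 (SD, n = 4) and 44.8% ± 4.18 (SD, n = 3). *Ocln* was 9.32% ± 0.982 of *Cldn11* in the wild type and 11.4% ± 0.738 in *Meioc*-null testes, and *F11r* was 17.4% ± 0.831 and 21.5% ± 3.75. Against *Cldn11* these 3 genes did not overlap (p = 0.0571 each, exact permutation test, the smallest possible), beside 7.66% of all genes with *Meioc*-null testes higher. As *Cldn11* hardly differed in CPM, this ratio largely restates the CPM comparison and is no further evidence.

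The tables are per transcript, so the makeup of each gene could be followed for the 5 members with more than 1 protein-coding transcript; together the 9 genes had 16 transcripts. A share is the part of a gene's estimated counts that kallisto assigned to a transcript, and 10 transcripts with a mean share of at least 10% were tested. None had an adjusted p under 0.286 (Benjamini-Hochberg over 10 exact permutation tests). The shares of 1 (*Jam2-202*) did not overlap between genotypes, and how often this holds over all transcripts was not set beside it.

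For *Gja1*, reads were divided between *Gja1-201*, whose first exon is at chr10:56377330-56377518, and *Gja1-206*, whose first exon is at chr10:56379088-56379387, 1758 bases downstream. Both have the same coding sequence of 1146 bases and differ only in these untranslated first exons of 189 and 300 bases, so few of the reads tell them apart. *Gja1-206* held 42.0%, 14.3%, 40.3% and 60.3% of the gene's counts in the wild type and 49.8%, 57.1% and 62.2% in *Meioc*-null testes. The wild-type libraries ranged from far below the *Meioc*-null libraries up into their range, and the shares did not differ beyond this spread (p = 0.171, exact permutation test). In CPM, *Gja1-206* was at 77.0, 22.4, 54.9 and 79.9 in the wild type and at 110, 128 and 155 in *Meioc*-null testes, without overlap. *Gja1-201* was at 106, 134, 81.4 and 52.6 CPM in the wild type and at 111, 96.4 and 93.8 CPM in *Meioc*-null testes, with overlap. By the assignment of kallisto only the downstream transcript separated. As the shares did not differ beyond their spread, the higher level is not placed at either start.

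For *Tjp1*, the transcript *Tjp1-202* holds a coding exon that *Tjp1-201* lacks, number 20 of its 28, which corresponds to the alpha domain of ZO-1. The exon is shown because its inclusion separates the known ZO-1 isoforms, and it is 240 bases long, which is 80 codons with 0 stops in frame. *Tjp1-201* in turn holds 60 coding bases (chr7:65299670-65299729) that *Tjp1-202* lacks, and *Tjp1-202* has 224 bases more at its 5′ end and 543 more at its 3′ end, so the share of *Tjp1-202* does not rest on this exon alone. The sequence is from GRCm38, minus strand, 5′ to 3′, with nothing marked.
*Tjp1* exon chr7:65314093-65314332: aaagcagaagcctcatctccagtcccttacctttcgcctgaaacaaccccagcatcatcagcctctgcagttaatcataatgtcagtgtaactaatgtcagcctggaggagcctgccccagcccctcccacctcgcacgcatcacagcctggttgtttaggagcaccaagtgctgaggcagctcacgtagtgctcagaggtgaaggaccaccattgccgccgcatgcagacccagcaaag

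*Tjp1-202*, with this exon, held 41.7%, 43.8%, 44.3% and 42.7% of the gene's counts in the wild type and 42.4%, 42.8% and 40.5% in *Meioc*-null testes. The makeup was nearly constant over the 7 libraries and the groups overlapped (p = 0.286, exact permutation test). *Ocln-203*, which encodes a shorter occludin with a coding sequence of 816 bases in place of 1563, held 31.7%, 26.9%, 25.6% and 33.3% in the wild type and 32.4%, 33.4% and 37.7% in *Meioc*-null testes (p = 0.114, exact permutation test), also with overlap. For *Jam2*, the main transcript *Jam2-202* held between 94.8% and 95.5% in the wild type and between 91.2% and 94.5% in *Meioc*-null testes. These ranges did not overlap (p = 0.0571, exact permutation test, the smallest possible; 0.286 adjusted over the 10 transcripts). The rest of its reads went to *Jam2-201*, with a coding sequence of 543 bases in place of 894. For *Cdh2*, the mean share of *Cdh2-202* was 54.8% ± 1.51 (SD, n = 4) in the wild type and 52.9% ± 0.968 (SD, n = 3) in *Meioc*-null testes.

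**Figure D4:**
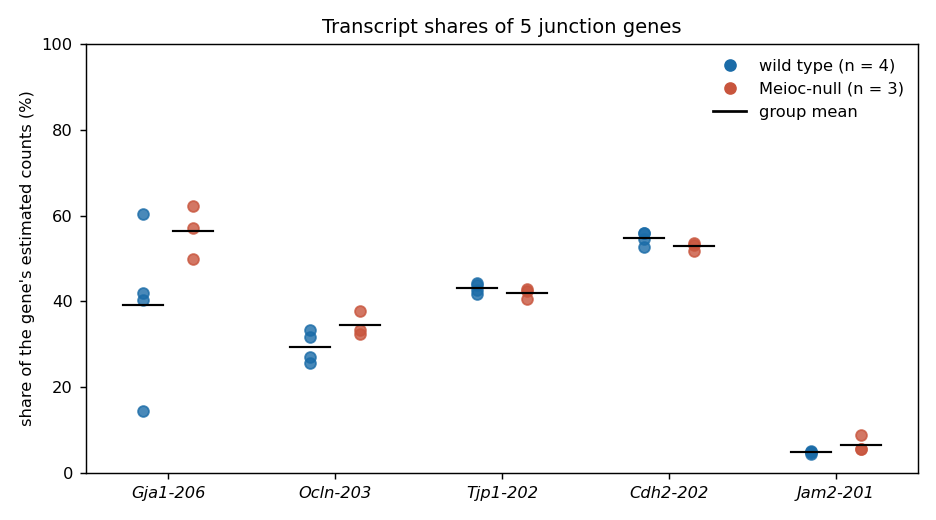
Share of each gene's estimated counts, in percent, on 1 transcript of each of the 5 junction genes with several transcripts, with wild-type libraries in blue, *Meioc*-null libraries in red and a line at each group mean. *Gja1-206* varies from 14.3% to 60.3% among wild-type libraries, whereas *Tjp1-202* stays between 40.5% and 44.3% in all 7.

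Across the 7 libraries, pairs of the 9 genes varied together to different degrees. This is a description over libraries of both genotypes that differ in depth, so differences between genotypes enter each value. The genes named below as most similar were picked for the highest correlation among all tested genes over 7 libraries. Such a value can be high by chance, and none was tested. Pearson's r of log2(CPM + 0.5) was 0.95 between *Cldn11* and *Cldn5*, 0.84 between *Jam2* and *F11r*, and -0.96 between *Gja1* and *Cdh2*. The genotypes did not overlap in CPM for *Gja1* and *Cdh2*, in opposite directions. Of all tested genes outside the list, those most like *Cldn11* were *Sar1b* (0.97), *A4galt* (0.95), *Fcgrt* (0.95), *Cyb5r4* (0.94) and *Twf2* (0.94). The single most similar gene was *Psmb10* for *Cldn3*, *Otub1* for *Cldn5*, *Ropn1l* for *Ocln*, *Fyb2* for *Jam2*, *B3galt1* for *F11r*, *Zfp963* for *Tjp1*, *Cdca7* for *Gja1* and *Cdk20* for *Cdh2*, with r between 0.981 and 0.997.

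Other genes of the same junctions were read from 6 lists, which held 70 measured gene identifiers, 54 of them tested. Of these, 3 were called higher in the wild type and 5 lower, beside the 11.1% of all genes called in either direction, and the median log2 fold change was -0.046, beside -0.26 for the 9 genes and -0.0065 for all genes. This median turned to 0.0027 without *Meioc*-null replicate 2 and to 0.014 with the trend with transcript length removed. None of these 8 fold changes turned sign under the alternatives run, but 0 of 8 held without wild-type replicate 3, 0 of 8 without *Meioc*-null replicate 3, 1 of 8 without wild-type replicate 2, 1 of 8 without *Meioc*-null replicate 2 and 2 of 8 without wild-type replicate 4. The call of *Magi2* was in addition lost without wild-type replicate 1, and that of *Igsf5* without *Meioc*-null replicate 1.

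Of the further strand proteins, 10 of 16 were tested and 1 was called, with a list median of -0.079 that turned to 0.0084 without *Meioc*-null replicate 3 and to 0.0076 with no filter on low values. *Jam3*, which encodes JAM-C and was the most abundant of them, had a log2 fold change of 0.24 ± 0.13 (SE) with an edgeR adjusted p of 0.227. The called gene was *Igsf5* under the identifier ENSMUSG00000000159, at 0.439 ± 0.203 CPM in the wild type (SD, n = 4) and 1.31 ± 0.230 CPM in *Meioc*-null testes (SD, n = 3), with an edgeR adjusted p of 0.0354. These are a few counts per library, and the symbol belongs to another identifier as well (log2 fold change of 0.41, edgeR adjusted p of 0.661), so the assignment of its reads is uncertain.

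All 13 plaque genes, which encode scaffolds and polarity proteins under the membrane, were tested. *Magi3*, a scaffold with PDZ domains, was higher in the wild type, at 162 ± 31.7 CPM against 103 ± 3.97 CPM (edgeR adjusted p of 0.0228), and so was *Mpp5*, which encodes the polarity scaffold PALS1, at 209 ± 37.3 CPM against 136 ± 11.3 CPM (edgeR adjusted p of 0.0228). *Prkci*, the atypical protein kinase C of the polarity complex, was lower in the wild type, at 135 ± 5.18 CPM against 173 ± 7.36 CPM (edgeR adjusted p of 0.0179), and so was *Magi2*, at 8.88 ± 0.298 CPM against 13.7 ± 3.52 CPM (edgeR adjusted p of 0.0471). The calls of *Magi3* and *Mpp5* were lost on the TPM scale. *Cgn*, which encodes cingulin and was the most abundant of the list, was at 377 ± 34.5 CPM and 390 ± 44.2 CPM (edgeR adjusted p of 0.775). The list's median was -0.052, with calls in both directions, and it turned to 0.016 without *Meioc*-null replicate 2 and to 0.011 with the length trend removed.

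Of the other gap junction genes, 6 of 11 were tested and the median was 0.19, which turned to -0.057 on log2(TPM + 1) and to -0.072 with no filter on low values. *Gja6*, a connexin gene and the most abundant of the list, was at 44.9 ± 3.65 CPM in the wild type and 32.3 ± 5.53 CPM in *Meioc*-null testes, the direction opposite to that of *Gja1*, with an edgeR adjusted p of 0.0375. Its call was lost on the TPM scale and when libraries were scaled by size alone.

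Of the adherens junction and ectoplasmic specialization genes, 13 of 14 were tested and 1 was called, with a median of 0.038 that turned below 0 on the TPM scale (-0.19), when libraries were scaled by size alone (-0.041) and without wild-type replicate 3 (-0.0075). *Itga6*, which encodes the alpha 6 integrin of cell adhesion to the basement membrane, was lower in the wild type, at 102 ± 7.36 CPM against 141 ± 10.7 CPM (edgeR adjusted p of 0.0166). *Ctnnb1*, which encodes the beta-catenin that binds N-cadherin, was the most abundant, at 698 ± 40.6 CPM and 641 ± 31.4 CPM (edgeR adjusted p of 0.294). Of 5 desmosome genes only *Pkp2*, which encodes a plakophilin, was tested, at 9.17 ± 1.69 CPM and 8.35 ± 0.432 CPM (edgeR adjusted p of 0.619), and its fold change of 0.13 turned to -0.11 by limma on log2(TPM + 1).

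All 11 genes of the regulators of the barrier were tested, with a median of -0.12. *Actr3*, which encodes a subunit of the Arp2/3 complex that branches actin, was lower in the wild type, at 178 ± 6.52 CPM against 221 ± 9.14 CPM (edgeR adjusted p of 0.0238). *Cdc42*, a GTPase that acts on actin and polarity and the most abundant of the list, was at 519 ± 27.7 CPM and 438 ± 56.1 CPM (edgeR adjusted p of 0.116).

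**Figure D5:**
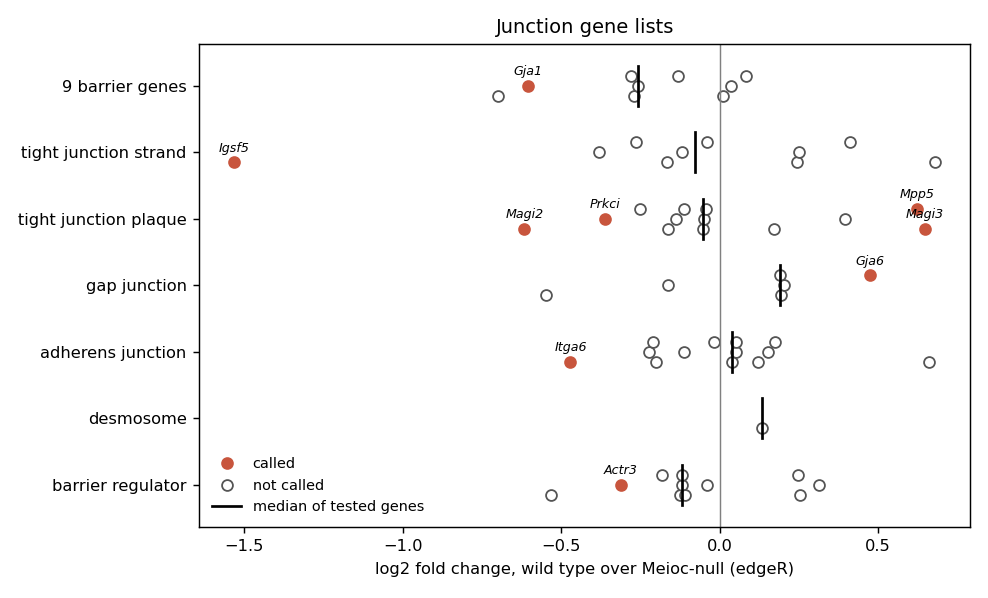
Log2 fold change (wild type/*Meioc*-null) by edgeR of the tested genes in the 9 barrier genes and in 6 lists of other junction genes, with called genes filled and named and a line at each median. The median of the 9 genes lies at -0.26, and those of the other lists lie between -0.12 and 0.19.

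Markers of the cells that could share these genes were read in the same fit. Among Sertoli markers the least changed was *Aard* at 1172 ± 40.6 and 1173 ± 149 CPM, and the most changed was *Trf*, the transferrin gene, at 44.4 ± 5.82 CPM in the wild type and 30.7 ± 6.66 CPM in *Meioc*-null testes (edgeR adjusted p of 0.0527). Among germ cell markers *Tex101* was the most changed, at 426 ± 44.8 and 177 ± 40.5 CPM (edgeR adjusted p of 0.00419), and *Dmrtb1* the least, at 14.6 ± 5.97 and 13.5 ± 0.924 CPM. The 6 peritubular myoid markers summed to between 540 and 620 CPM in the wild type and between 513 and 597 CPM in *Meioc*-null testes. *Myh11* was the least changed of them (log2 fold change of -0.023), and *Des*, which encodes desmin, was the only one called (-0.37, edgeR adjusted p of 0.0493), a call lost in each of the 7 fits without 1 library.

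Endothelial cells also express *Cldn5* and *Tjp1*. Their 7 markers, 6 of which were tested and 0 called by edgeR, summed to between 77.6 and 96.2 CPM in the wild type and between 81.8 and 98.2 CPM in *Meioc*-null testes, and ranged in log2 fold change from -0.30 to 0.58, with *Emcn* the most changed (0.58) and *Tm4sf1* the least (-0.087). At an unadjusted p under 0.05 by edgeR, 1 was higher in the wild type and 1 lower, DESeq2 called 0, and limma on log2(TPM + 1) called 1 lower. Macrophage markers summed to between 115 and 125 CPM and between 122 and 157 CPM, with *Csf1r* the most changed (-0.24) and *Adgre1* the least (-0.040), and edgeR and DESeq2 each called 0 of 6 (1 was lower at an unadjusted p under 0.05 by edgeR), whereas limma on log2(TPM + 1) called 2 lower. Leydig cell markers varied most between libraries of 1 genotype, from 280 to 566 CPM in the wild type and from 335 to 645 CPM in *Meioc*-null testes. *Star* was the most changed of these (-1.10) and *Cyp11a1* the least (0.20), and edgeR called 0 of 7, with 2 lower at an unadjusted p under 0.05, while DESeq2 called 2 lower and limma on log2(TPM + 1) called 3 lower. Whether any of these cells contributed to the differences of the 9 genes was not tested.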

How the data were processed

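Bulk RNA-seq libraries of preleptotene-enriched testes from 4 wild-type and 3 *Meioc*-null pups were compared, grouped by the genotype in their labels. Total RNA was depleted of ribosomal RNA and sequenced as stranded single-end reads. The authors trimmed reads with cutadapt 1.8 and ran kallisto 0.44.0 with bias correction and strand on GENCODE Basic vM15, and deposited estimated counts per protein-coding transcript, not normalized between libraries. The deposited TPM values were rescaled by the authors over protein-coding transcripts, and TPM keeps no depth.

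The GENCODE vM21 annotation of GRCm38 gave the gene of each transcript, by Ensembl identifier, and 119 of 43139 transcripts were unmatched (0.247% to 0.282% of the counts of a library). Summed estimated counts were rounded and normalized by TMM. Genotypes were compared in edgeR 4.0.16 (R 4.3.3, glmQLFTest, quasi-likelihood), with no covariate and with Benjamini-Hochberg adjustment over 13630 genes, those that reached 1 TPM in 3 or more of the 7 libraries. The study used DESeq2, which served here as an alternative (1.42.0). Levels against markers and transcript shares were compared by exact permutation tests over 35 splits. On simulated data with 200 of 13630 genes changed, the fit recovered 193 with 14 false calls, and with none changed it made 0 calls. At this depth 3 counts are 0.151 to 0.236 CPM, and such limits cover counting error only.

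The 9 genes, the junction lists, the marker lists and the tests were chosen with earlier results of these data known. Named genes are the 9, every called gene of the junction lists with the most abundant of each, the most and least changed of each marker list, and the genes most similar to a member. The other called germ cell markers, *Tdrd1* and *Panx1* were named after their values were seen. Of the listed symbols, *Cldn25* was unmatched. Alternatives were RLE, scaling by library size alone, DESeq2, limma 3.58.1 on TPM with a pseudocount of 1 or 0.1, other filters, removal of a trend with transcript length, each library left out, a replicate block, and, added after the data were seen, *Cldn11* as a reference.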

Additional observations from a re-analysis of the deposited data

Results flagged for a closer look

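In groups of 4 libraries, a library whose gap to its nearest neighbor took more of the whole range than Dixon's 95% critical value was marked, which chance gives in about 1 of 20 groups. This held for 2 of 25 groups tested. For *Jam2* in CPM the ratio was 0.855, because wild-type replicate 2 was higher than the other wild-type libraries. For *F11r* in CPM it was 0.847, because wild-type replicate 4 was higher than the others, although still below every *Meioc*-null library.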

How the results depend on the processing

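The test called 1513 of all genes, 2331 by DESeq2, 2522 and 2506 by limma on log2(TPM + 1) and log2(TPM + 0.1), and between 131 and 2172 when each library was left out. Of the 9 junction genes it called 1, but 3 with no scaling beyond library size, 3 by DESeq2, 4 by limma with either pseudocount, and between 0 and 3 with each library left out, with 0 without wild-type replicates 2 or 3 or *Meioc*-null replicate 3. Without 1 library, between 3 and 6 of the 9 genes did not overlap relative to Sertoli markers, and between 1 and 4 transcript shares did not overlap. Fewer libraries separate more often by order alone, and no share over all genes or transcripts was set beside these counts. They are thus not a result about the genes. *Gja1*, *Cldn3*, *Ocln*, *Jam2*, *F11r* and *Tjp1* were below 0 in all alternatives. Replicate numbers did not pair the libraries (deviations of same-numbered libraries correlated at -0.044, -0.097 and -0.21); with a replicate block on replicates 1 to 3, 114 genes and 0 of the 9 were called, and *Gja1* was at -0.56 (edgeR adjusted p of 0.0952) and the adherens junction median at -0.0018. Near 0, signs turned. *Cldn11* went to -0.0017 (RLE), -0.0019 (DESeq2), -0.0018 (block), -0.068 (no scaling), -0.22 (both TPM scales) and ranged from -0.047 to 0.056 without 1 library, and *Cldn5* went to -0.041 (no scaling), -0.15 and -0.19 (TPM + 1 and + 0.1) and ranged from -0.089 to 0.15. *Cdh2* went to -0.16 on both TPM scales. Relative to Sertoli markers, *Cldn5* turned to 0.016 (summed markers) and 0.043 (*Cldn11* as reference) and ranged from -0.21 to 0.035 without 1 library, and *Cdh2* turned to 0.046 and 0.073 and ranged from -0.086 to 0.023. The genotype difference in the share of *Ocln-201* ranged from -3.66 to 4.79 percentage points and that of *Ocln-202* from -0.14 to 1.86 without 1 library. The cause of these changes was not tested. *Cldn3* and *Cldn5* rest on few counts.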
